A study of Rattus norvegicus with 5 samples.

Results

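The discs large (DLG) family comprises the scaffold proteins Dlg1, Dlg2, Dlg3, Dlg4 and Dlg5 and the proteins that bind to them, here Dlgap1 and Dlgap4. The family was measured in the mesenteric fat that surrounds the pancreas of male Wistar rats. Its members were chosen by gene name around Dlg2, which was itself selected on its higher level in the cafeteria diet samples. The differences between diets are therefore given as a description, without a test. The 7 genes hold 17 probe sets annotated with exactly 1 symbol, out of 31042 probe sets for transcripts on the array and 14217 genes named in this way. The cafeteria group consists of 2 samples from rats that took 66% of their calories as fat, and the labels call these rats obese. The standard group consists of 3 samples from rats fed standard chow, in which fat gave 8% of the calories. The rats, aged 7 weeks, were housed singly and kept on their diet for 30 days, and each sample was hybridised to its own Affymetrix expression array.

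DLG proteins are membrane-associated guanylate kinases. They carry PDZ domains, which hold the tails of ion channels, receptors and adhesion proteins, and a guanylate kinase-like domain that has lost its enzyme activity and serves as a docking site. In neurons they anchor glutamate receptors and potassium channels at synapses, and in epithelia Dlg1 acts with Scribble and Lgl proteins to set cell polarity. DLGAP proteins attach to the guanylate kinase-like domain and link it to Shank scaffolds.

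The values are log2 expression levels, so that a difference of 1 is a doubling. The fat cell marker list was measured with all 10 of its genes on the array above the filter on dim probe sets, which removed those with a mean under 4.28. Its mean level was 11.85 and 12.05 in cafeteria samples, against 11.55, 11.73 and 11.73 in standard samples. The array of standard replicate 1 stood apart in the mean of acinar transcripts, those of the pancreas cells that make digestive enzymes. The mean of 15 such genes was 8.39 there, against 4.80 and 4.67 in cafeteria samples and 4.49 and 4.56 on the other standard arrays. Not every gene followed this mean. Cela3b read 9.86 on standard replicate 1, but also 9.70 on standard replicate 2 and 9.52 on cafeteria replicate 1. Cpa1 read 9.37 on standard replicate 1 and 9.07 on cafeteria replicate 2. No probe set on the array passed an adjusted p of 0.05 between the diets (limma, 0 of 21729 above the filter and 0 of 31042 without it, or 0% in both, the smallest adjusted p being 0.0958). At an unadjusted p under 0.05, 1315 probe sets lay higher and 1439 lower in cafeteria samples.

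Dlg2 encodes a scaffold of the postsynaptic density that clusters glutamate receptors and potassium channels in neurons. It is represented by 1 probe set, which read 9.15 and 9.31 in cafeteria samples, against 7.11, 6.75 and 7.09 in standard samples. The lowest cafeteria value lay 2.04 above the highest standard value, so the diets were far apart. The means were 9.23 ± 0.11 (SD, n = 2) in cafeteria samples and 6.98 ± 0.20 (SD, n = 3) in standard samples. This is a log2 difference of 2.25 ± 0.14 (SE), a 4.75-fold higher level. Among the 21729 probe sets above the filter, 1 lay higher in cafeteria samples by more than Dlg2, and 8 lay lower by more than that amount. In bulk tissue, more RNA of this gene per cell and more cells that express it cannot be told apart.

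Since Dlg2 was selected on its difference over these same arrays, the values with single arrays left out only describe it. With cafeteria replicate 1 left out it was 2.32, and with cafeteria replicate 2 left out it was 2.17. Leaving out standard replicate 1, the array rich in acinar genes, gave 2.31. The lowest value, 2.13, was found without standard replicate 2, which had the lowest Dlg2 level, and without standard replicate 3 the difference was 2.30.

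**Figure D1:**
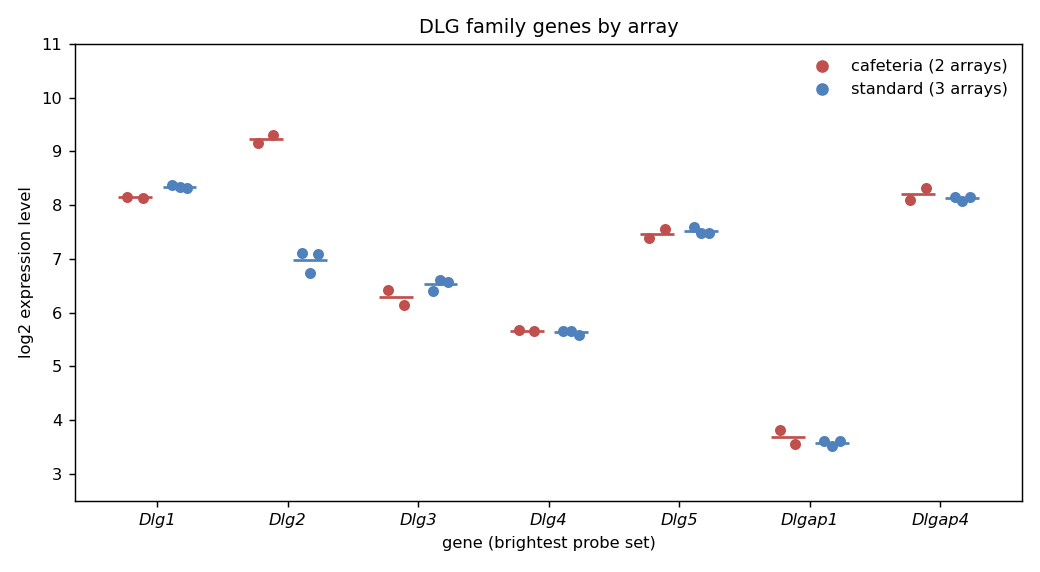
Log2 expression level (vertical axis) of the brightest probe set of each of the 7 genes, with 1 point per array and a line at the group mean; cafeteria arrays are red and on the left of each pair, standard arrays blue. Dlg2 is the only one of these genes with a wide space between the groups, 9.15 and 9.31 against 6.75 to 7.11, while the other 6 genes differ by at most 0.24.

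Because Dlg2 is expressed in nerve, markers of cells that could hold it were read on the same arrays. The Schwann cell list had 10 genes on the array, of which 4, all their probe sets counted, lay under the filter. Its mean level was 5.83 and 5.88 in cafeteria samples, against 5.71, 5.72 and 5.73 in standard samples. Of its 8 probe sets above the filter, 6 had both cafeteria arrays highest, 3 of them for the myelin gene Mbp, beside 13.3% of all probe sets above the filter. The other 2, of Erbb3 and Ngfr, had lower means, at -0.027 and -0.20. Both cafeteria arrays were also highest for 7 of 13 fat cell probe sets and lowest for 1. The fat cell hormone Lep, given here for its size, differed by 1.59 ± 0.20. S100b, a calcium-binding protein of Schwann cells and fat cells, differed by 0.51 ± 0.05 (limma, adjusted p = 0.195). The neuron list overlapped between diets, with a mean level of 4.65 and 4.71 in cafeteria samples, against 4.70, 4.64 and 4.84 in standard samples, and 7 of its 16 genes lay under the filter. Of its 11 probe sets above the filter, 9 had a higher mean in cafeteria samples and 2 a lower one, with a median difference of 0.13. One of the lower ones was Snap25, a protein of synaptic vesicle release, at -1.45 ± 0.08 (limma, adjusted p = 0.0958). The striated muscle list, with 10 of 14 genes under the filter, had mean levels of 4.55 and 4.57 in cafeteria samples, against 4.58, 4.38 and 4.94 in standard samples. For smooth muscle and pericyte genes the mean levels were 8.15 and 8.08 in cafeteria samples, against 8.65, 8.06 and 9.48 in standard samples. Of their 20 probe sets above the filter, 3 had a higher mean in cafeteria samples and 17 a lower one, with a median difference of -0.51. T cell genes were at 5.62 and 5.08 in cafeteria samples, against 6.09, 5.97 and 5.62 in standard samples. All 13 of their probe sets above the filter had a lower mean in cafeteria samples, with a median difference of -0.44. The median over all probe sets above the filter was -0.0036. The part of any of these cell types, or of fat cells, in the Dlg2 difference was not tested.

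Dlg1, the polarity scaffold of epithelia that also serves at synapses, was measured by 2 probe sets. The brighter read 8.16 and 8.13 in cafeteria samples, against 8.38, 8.34 and 8.31 in standard samples. The cafeteria values lay under every standard value, by a gap of 0.16, and the difference was -0.20 ± 0.05 (SE), a 1.15-fold lower level. The second Dlg1 probe set read 7.41 and 7.31 in cafeteria samples, against 7.57, 7.48 and 7.36 in standard samples, with a difference of -0.11 ± 0.09. The groups overlapped on it. Thus both Dlg1 probe sets had a lower mean in cafeteria samples, the sign opposite to that of Dlg2, and the brighter one stayed below 0, at -0.18 or lower, when each array was left out in turn.

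The region before the annotated start of the gene is shown for Dlg2, whose level differed most between the diets, and for Dlg1. The brighter Dlg1 probe set was the only one of the family with both cafeteria arrays below all standard arrays. Each region is the 250 bases upstream of the start in RefSeq's annotation of the GRCr8 build, on the strand of the gene. Capitals mark matches, on either strand, to any of 6 motifs: the TATA box (TATAAA), the CCAAT box (CCAAT), the GC box (GGGCGG), the E-box of the form CACGTG, the core of the cyclic AMP response element (TGACG) and the core of nuclear receptor sites (AGGTCA). The E-box and the cyclic AMP core can share bases. The Dlg2 window is chr1:154539421-154539670 on the plus strand, and the Dlg1 window is chr11:82607798-82608047 on the minus strand.
Dlg2 upstream region: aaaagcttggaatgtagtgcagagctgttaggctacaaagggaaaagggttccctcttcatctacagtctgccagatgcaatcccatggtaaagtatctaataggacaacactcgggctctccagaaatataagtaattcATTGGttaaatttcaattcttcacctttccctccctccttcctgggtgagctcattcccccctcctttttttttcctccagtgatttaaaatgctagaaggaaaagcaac
Dlg1 upstream region: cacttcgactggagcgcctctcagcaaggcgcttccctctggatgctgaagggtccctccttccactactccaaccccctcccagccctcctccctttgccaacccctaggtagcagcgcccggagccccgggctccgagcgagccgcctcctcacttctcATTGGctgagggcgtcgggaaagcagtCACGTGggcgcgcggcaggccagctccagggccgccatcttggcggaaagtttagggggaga

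The Dlg2 window was poor in G and C, at 42.4%, and held 1 CpG dinucleotide. Of all 33469 such windows in the RefSeq table, 18.1% held as few, and the median was 5 CpG and 51.2% G and C. The Dlg1 window had 66.4% G and C and 17 CpG, Dlg5 had 76.4% and 33, and Dlgap4 had 84.4% and 40. Dlg4 had 69.2% G and C with 5 CpG, and the pair of Dlgap1 windows had 42.0% and 34.4% with 5 and 4 CpG. Windows were matched for 6 of the 7 genes, all but Dlg3. Dlg2 had the fewest CpG of these windows.

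The windows of Dlg2 and Dlg1 and 1 window of Dlgap1 each held 1 match to CCAAT, read on the opposite strand as ATTGG. Of all windows, 34.0% hold a match to CCAAT. The Dlg1 window also held 1 CACGTG, found in 5.59% of windows. Matches to GGGCGG, found in 30.5% of windows, numbered 3 for Dlg5 and 2 for Dlgap4 and 0 for Dlg2 and Dlg1. TATAAA, found in 12.9% of windows, had matches for 1 window of Dlgap1 only among the members. TGACG, found in 18.2% of windows, and AGGTCA, found in 14.1%, had no match in any member window. A match is a description of the letters in this window, and which start is used in this fat was not measured.

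Dlg3, an X-linked scaffold of the neuronal synapse, was measured by 4 probe sets, of which 2 were above the filter. The brightest read 6.43 and 6.14 in cafeteria samples, against 6.41, 6.61 and 6.57 in standard samples. The groups overlapped because cafeteria replicate 1 lay slightly above standard replicate 1. The difference was -0.24 ± 0.12, which became -0.39 when cafeteria replicate 1 was left out and -0.10 when cafeteria replicate 2 was. The second Dlg3 probe set, at 5.59 and 5.59 in cafeteria samples, against 5.79, 5.59 and 5.43 in standard samples, differed by only -0.015 ± 0.12. The 2 dim Dlg3 probe sets, all at 4.17 or less, differed by -0.040 and 0.021. The lower mean of the brightest Dlg3 probe set was thus not seen at that size on the others.

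Dlg4, the core scaffold of excitatory synapses, was measured by 4 probe sets, of which 3 were above the filter. The brightest read 5.67 and 5.66 in cafeteria samples, against 5.66, 5.66 and 5.59 in standard samples, a difference of 0.030 ± 0.05. Both cafeteria values were above the standard ones by a gap of only 0.0028, well inside the standard SD of 0.039. The second differed by 0.092 ± 0.06 and the dimmest by 0.031 ± 0.04. The third Dlg4 probe set read 4.21 and 4.61 in cafeteria samples, against 4.61, 4.68 and 4.73 in standard samples, and its difference of -0.26 ± 0.14 came mostly from cafeteria replicate 1. The Dlg4 probe sets therefore differed in sign, and the mean over them was -0.027.

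Dlg5, a larger family member that supports cell adhesion and polarity in epithelia, had 1 probe set. It read 7.39 and 7.56 in cafeteria samples, against 7.59, 7.48 and 7.49 in standard samples. The groups overlapped, and the difference was -0.048 ± 0.08. Its sign depended on the array, at 0.037 without cafeteria replicate 1 and -0.13 without cafeteria replicate 2.

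**Figure D2:**
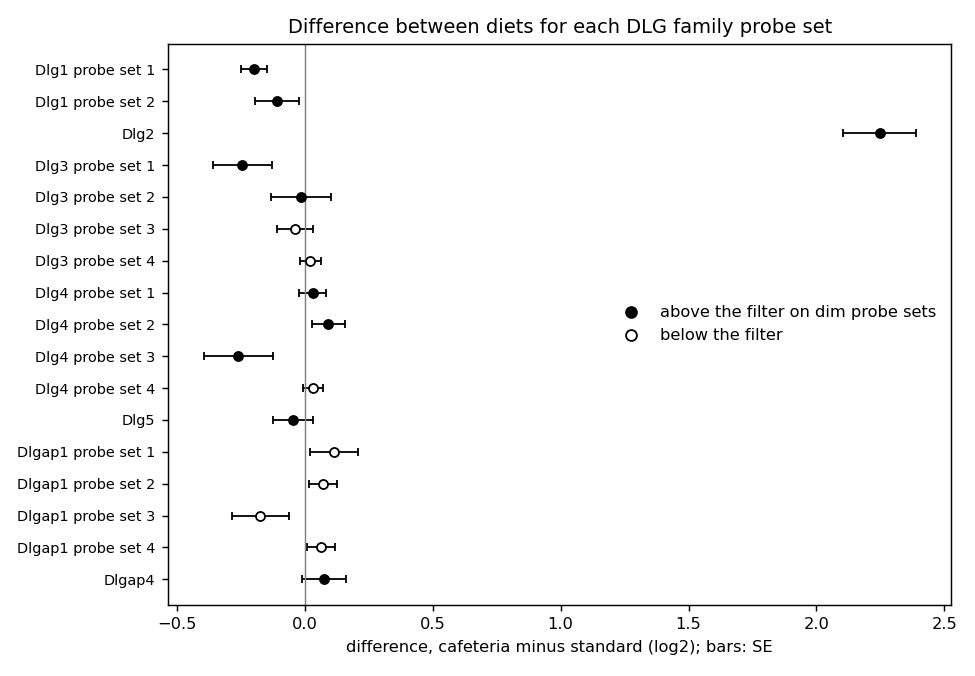
Difference between diets (horizontal axis, cafeteria minus standard, log2) with its SE for each of the 17 probe sets, numbered within a gene from brightest to dimmest; filled points are above the filter on dim probe sets and open points below it. Dlg2 stands at 2.25 and the other 16 lie between -0.26 and 0.11.

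Among the DLG-associated proteins, Dlgap4, a synaptic linker also found outside the nervous system, read 8.09 and 8.32 in cafeteria samples, against 8.15, 8.08 and 8.15 in standard samples. The groups overlapped, and the difference was 0.074 ± 0.09. Leaving out cafeteria replicate 1 gave 0.19 and leaving out cafeteria replicate 2 gave -0.038, so the sign rested on cafeteria replicate 2. Dlgap1, the main brain form, was under the filter with all 4 of its probe sets, whose values ran only from 2.93 to 3.82 over all arrays. Its brightest probe set read 3.82 and 3.56 in cafeteria samples, against 3.61, 3.51 and 3.61 in standard samples, a difference of 0.11 ± 0.09. Its other probe sets differed by 0.072, -0.17 and 0.062, and the groups overlapped on all 4.

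The related genes Dlgap2, Dlgap3 and Dlgap5 were read for comparison. Dlgap2 and Dlgap3, both known from the synapse, were under the filter on all 3 of their probe sets. Dlgap2 differed by -0.018, the brighter Dlgap3 probe set by 0.079 and the dimmer one by 0.19 ± 0.10. Dlgap5, which binds the mitotic spindle, read 6.83 and 6.46 in cafeteria samples, against 6.55, 6.51 and 6.47 in standard samples. Its difference of 0.14 ± 0.12 (limma, adjusted p = 0.600) became 0.32 when cafeteria replicate 2 was left out and -0.044 when cafeteria replicate 1 was. The groups overlapped for all 3 genes.

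Over the whole family, 2 of 17 probe sets had both cafeteria arrays above all standard arrays, those of Dlg2 and the brightest of Dlg4, against 12.4% of all probe sets without a filter. The brighter Dlg1 probe set was the 1 with both cafeteria arrays below, against 10.8% of all probe sets, and 14 overlapped. As the members were chosen with this contrast in view, these counts are given only beside the background. Of the 16 probe sets other than Dlg2, 8 had a higher mean and 8 a lower mean in cafeteria samples, with a median difference of 0.0030, beside 0.0083 for all probe sets without a filter. On 11 of the 17, at least 2 arrays held the same value to 6 decimals, which makes some SDs small, but the 5 Dlg2 values were all different. The filter on dim probe sets was passed by 10 of the 17.

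**Figure D3:**
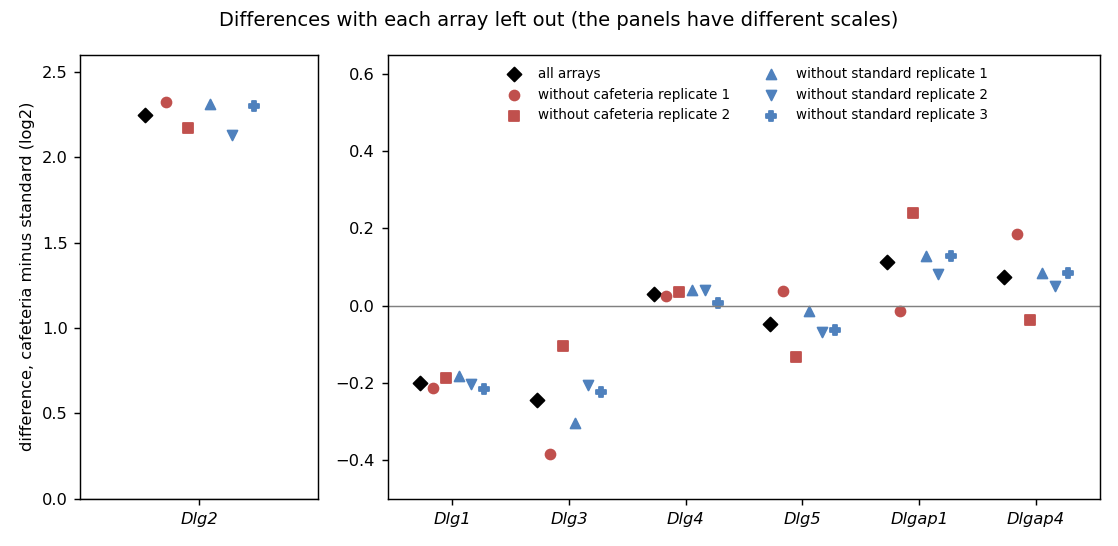
Difference between diets (vertical axis, cafeteria minus standard, log2) of the brightest probe set of each gene with all arrays and with each array left out; the left panel holds Dlg2 and has a wider scale than the right panel. Dlg2 stays between 2.13 and 2.32, Dlg1 and Dlg3 stay below 0, and Dlg5, Dlgap1 and Dlgap4 each cross 0 when 1 cafeteria array is left out.

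The genes whose values over the 5 arrays were most like those of Dlg2 were found from the root mean square difference between log2 values, each centred on its own mean. This measure takes the difference between the diets into account, so the likeness is a description over 5 arrays. The closest gene was Grifin, a galectin-related gene known from the lens, at a distance of 0.22. It read 12.35 and 12.63 in cafeteria samples, against 10.90, 10.44 and 10.66 in standard samples. Next were Fabp3, the fatty acid binding protein of heart and muscle, at 0.33, Sync, an intermediate filament protein of muscle, at 0.36, Myl4, a myosin light chain of the atrium and embryonic muscle, at 0.36, and Col8a1, a short-chain collagen, at 0.37. Their differences were 1.83 for Grifin, 1.70 for Fabp3, 1.69 for Sync, 1.95 for Myl4 and 1.54 for Col8a1. On each, the lowest cafeteria array lay at least 1.165 above the highest standard array, which follows from their choice by likeness to Dlg2. Among all probe sets above the filter, 51 lay higher in cafeteria samples by more than 1 without overlap. A second Sync probe set differed by only 0.25. Of the striated muscle markers, 4 genes were above the filter with 8 probe sets, 5 of them for the myosin gene Myh1. The 5 Myh1 probe sets had a higher mean in cafeteria samples, as did the single ones of Tnnt3 and Myl1, whereas Acta1 differed by -1.27 ± 0.93. The part of muscle cells in the likeness was not tested.

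**Figure D4:**
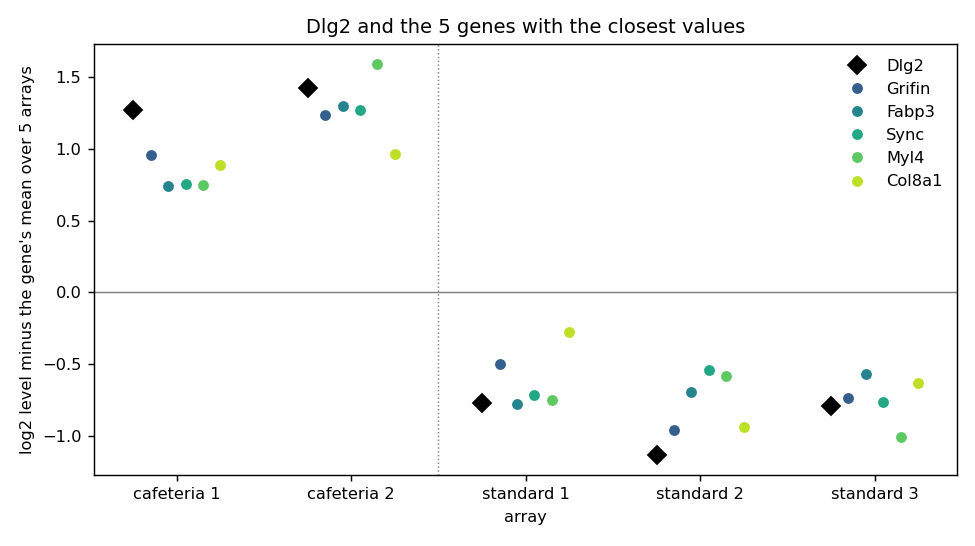
Log2 level minus the gene's own mean over the 5 arrays (vertical axis) for Dlg2 (black diamonds) and the 5 genes closest to it (coloured points) on each array; cafeteria arrays are left of the dotted line. All 6 genes lie above 0 on both cafeteria arrays and below 0 on all 3 standard arrays, and Dlg2 has the highest value of them on cafeteria replicate 1.

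The 1 probe set above the filter that lay higher in cafeteria samples by more than Dlg2 has no symbol in the annotation used here. It is given because of its values, outside the rule for named genes. It read 9.16 and 9.53 in cafeteria samples, against 6.73, 6.50 and 7.08 in standard samples, a difference of 2.58 ± 0.22. Its distance from Dlg2 was 0.21, closer than that of any named gene.

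Genes that neighbour Dlg2 in the RefSeq order of GRCr8 were also read, a comparison added after the data were seen. These were the 4 nearest protein-coding genes with a probe set on either side, each read on its brightest probe set only. None of them showed a difference of the size seen for Dlg2 on that probe set. Before Dlg2, Tmem126b and Tmem126a, which serve assembly of mitochondrial complex I, differed by 0.12 ± 0.06 and 0.29 ± 0.09, with cafeteria arrays above all standard arrays for both. Crebzf differed by -0.24 ± 0.08, with cafeteria arrays below all standard arrays, and Sytl2 by 0.19. Among all probe sets above the filter, the shares that separate in this way are 13.3% above and 14.1% below. After it, Ccdc90b differed by -0.0096, Ankrd42 by -0.016, Pcf11 by -0.16 and Rab30 by 0.18.

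Genes of proteins that act with DLG scaffolds were read from 5 lists, 84 probe sets of 57 genes above the filter. None passed an adjusted p of 0.05, the smallest being 0.253 (limma). At an unadjusted p under 0.05, 5 lay higher (5.95%) and 6 lower (7.14%), beside 6.05% and 6.62% of all probe sets above the filter. Both cafeteria arrays were above all standard arrays for 13 (15.5%) and below for 9 (10.7%), beside 13.3% and 14.1% of all probe sets. Their median difference was 0.016, beside -0.0036 for all probe sets. These shares lie near the background, and the largest positive difference among them was 0.33, against 2.25 for Dlg2.

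The other membrane-associated guanylate kinases had 11 of 13 genes on the array above the filter, with 20 probe sets and a median difference of -0.05. Of these, 0 lay higher and 3 lower at an unadjusted p under 0.05, beside 6.05% and 6.62% of all probe sets above the filter. The lower ones were probe sets of Magi1 and Tjp1 only. Magi1, a scaffold of cell junctions, was the lowest, with 6.52 and 6.74 in cafeteria samples, against 7.11, 7.22 and 7.42 in standard samples. The difference was -0.62 ± 0.13 (limma, adjusted p = 0.263), and its other probe sets above the filter gave -0.57 and -0.44, with cafeteria arrays below all standard arrays on all 3. Tjp1, the tight junction scaffold, differed by -0.32 ± 0.10 (adjusted p = 0.341, limma) where it was brightest, whereas its second probe set gave -0.089 ± 0.40. Cask, a scaffold with a kinase-like domain, differed by 0.11 ± 0.06 (adjusted p = 0.502, limma). Endothelial markers, whose cells hold junction scaffolds, also had lower means, with levels of 8.30 and 8.76 in cafeteria samples, against 8.94, 8.91 and 9.05 in standard samples, 0 of 14 probe sets higher and 0 of 11 genes under the filter. Their part in the Magi1 and Tjp1 values was not tested.

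The polarity list, with Scribble, Lgl, Par and Crumbs genes, had 20 probe sets of 15 genes above the filter, with a median of -0.0056. At an unadjusted p under 0.05, 2 were higher and 1 lower, beside 6.05% and 6.62% of all probe sets above the filter. Prkci, the atypical protein kinase C of the Par complex, read 10.37 and 10.38 in cafeteria samples, against 10.17, 10.23 and 10.24 in standard samples, a difference of 0.16 ± 0.05 (limma, adjusted p = 0.353). The second Prkci probe set above the filter differed by 0.14 ± 0.25, with overlapping groups. Pard6a, the adaptor of Prkci, differed by 0.25 ± 0.09 and Llgl1, a polarity partner of Dlg1, by -0.15 ± 0.09 (limma, adjusted p = 0.363 for Pard6a and 0.501 for Llgl1). Scribble itself (Scrib), named here after its values were seen because Dlg1 acts with it, differed by 0.0090 ± 0.06, so the Scribble module held no difference near that of Dlg2.

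Channels and receptors held by DLG PDZ domains were often dim, with 13 of 27 genes under the filter. The 16 probe sets above it had a median difference of 0.14, beside -0.0036 for all probe sets above the filter. Of them, 14 had a higher mean and 2 a lower one, and on several of them arrays shared a value. At an unadjusted p under 0.05, 3 lay higher and 0 lower, beside 6.05% and 6.62% of all probe sets above the filter. Adrb1, the beta-1 adrenergic receptor, read 5.23 and 5.16 in cafeteria samples, against 4.78, 4.97 and 5.02 in standard samples, a difference of 0.27 ± 0.09 (limma, adjusted p = 0.360). Cacng2, which carries AMPA receptors to synapses, differed by 0.14 ± 0.05, and Grin2c, an NMDA receptor subunit, by 0.25 ± 0.10 (limma, adjusted p = 0.355 for Cacng2 and 0.441 for Grin2c). Of these, Grin2c was not among the 3 that lay higher at an unadjusted p under 0.05. The other was a probe set of Fzd4, a Wnt receptor, named here after its values were seen, with 7.86 and 8.11 in cafeteria samples, against 7.66, 7.58 and 7.72 in standard samples, a difference of 0.33 ± 0.10 (limma, adjusted p = 0.330). The brighter Fzd4 probe set differed by 0.29 ± 0.30, with overlapping groups. The list median was 0.080 without cafeteria replicate 2 and 0.23 once probe sets under the 50th percentile were removed.

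Adaptors and enzymes that bind DLG or DLGAP proteins had 29 probe sets of 17 genes above the filter, 15 higher and 14 lower, with a median of 3.38e-06. At an unadjusted p under 0.05, 0 were higher and 2 lower, beside 6.05% and 6.62% of all probe sets above the filter. The lower ones were 1 each of Epb41 and Epb41l1, membrane cytoskeleton proteins. The Epb41 probe set, named after its values were seen, differed by -0.58 ± 0.11 (limma, adjusted p = 0.253), the smallest adjusted p among the partner genes, while the brighter Epb41 probe set differed by 0.080 ± 0.06. Map1a, a microtubule protein that binds DLG scaffolds, differed by 0.24 ± 0.10 and Shank2, which DLGAP proteins link to, by 0.14 ± 0.06 (limma, adjusted p = 0.434 for Map1a and 0.442 for Shank2). Probe sets of Epb41l1 disagreed too, at 0.33 ± 0.16 for the brightest (limma, adjusted p = 0.478) and -0.60 ± 0.15 and -0.046 ± 0.10 for the others.

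**Figure D5:**
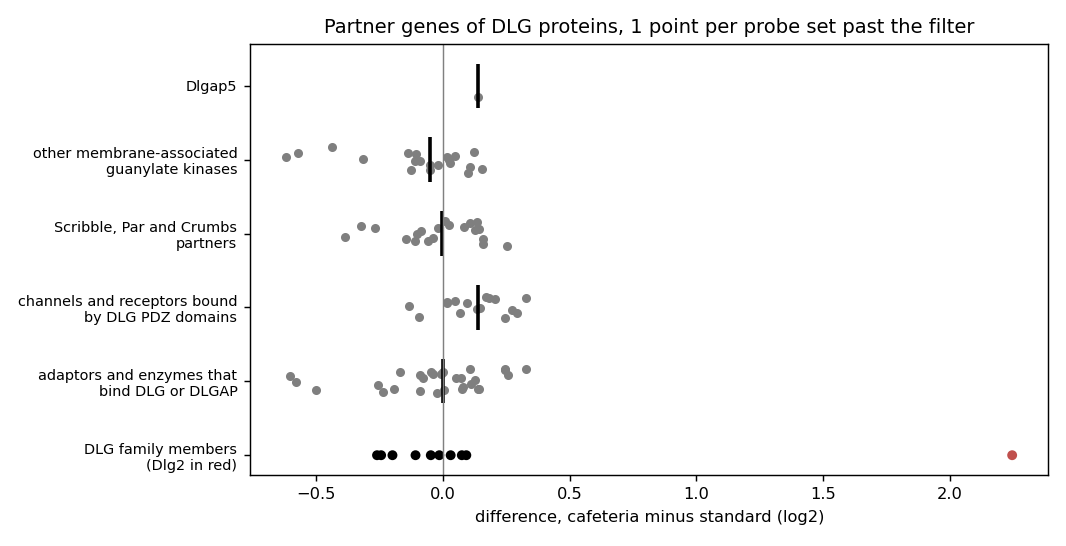
Difference between diets (horizontal axis, cafeteria minus standard, log2) for each probe set above the filter in the 5 lists of partner genes, with a bar at the list median; the vertical scatter within a list carries no value. The bottom row shows the family members above the filter, with Dlg2 in red at 2.25, outside the range of -0.62 to 0.33 of the partner genes.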

How the data were processed

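The deposited values were log2 expression levels per probe set. RMA and affy are named in the submitters' processing notes as what the authors used, with no version given. RMA equalises array distributions at the level of single probes, and the array medians of the deposited values ran from 5.70 to 5.75. After 57 control probe sets were removed from 31099, the 21729 with a mean over all arrays above the 30th percentile were kept. Diets were compared over all of these in limma 3.58.1 (R 4.3.3; lmFit, eBayes; two-sided; Benjamini-Hochberg, threshold 0.05), and SEs are moderated ones, from an unfiltered fit for dimmer members. The number of arrays limits precision. The p-values set each difference against the moderated spread within only these 2 cafeteria and 3 standard samples.

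Symbols came from GEO's platform annotation, where 20826 probe sets had 1 symbol, 436 several and 9780 none. All 7 members matched RefSeq gene identifiers. Members and lists were chosen with earlier results of these data known. Named genes are all members, the 3 of smallest p in each partner list (by the brightest probe set, that of highest mean), the 5 closest to Dlg2 and bright markers. On simulated data for this comparison (21729 probe sets, independent normal noise), 88 of 100 probe sets shifted by 1 log2 unit and 98 of 100 shifted by 2 were called, as were 8 unshifted ones. The noise had the moderated variances of the fit, which differ less between probe sets than the unmoderated ones. These shares therefore do not give the share of real differences that the 5 arrays could call. Filters, normalization, variance model, probe set averaging, a replicate block and single arrays left out were varied. Figures used matplotlib 3.10.9.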

Additional observations from a re-analysis of the deposited data

How the results depend on the processing

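Of 11 alternatives, 3 (both other filters and the variance model) cannot move the Dlg2 difference. The other 8 gave 2.13 to 2.32, with 2.27 after quantile and 2.26 after cyclic loess normalization. Of those 8, the replicate block repeats the difference found without standard replicate 3, so it is no separate check. Among the other members, Dlg1 and Dlg3 kept their sign under 12 alternatives each, the same 3 and the replicate block included. Their size moved, from -0.22 to -0.15 for Dlg1 and from -0.39 to -0.070 for Dlg3. For both genes the smallest size came from the mean over all probe sets of the gene. Dlg4 changed sign under 1 alternative, Dlg5 under 2, Dlgap1 under 1 and Dlgap4 under 1. Dlg5 was 0.0020 after quantile normalization. No alternative called any probe set at an adjusted p of 0.05 (limma). The count at an unadjusted p under 0.05, 2754 with all arrays, ranged from 1981 without standard replicate 2 to 4171 without cafeteria replicate 1. Leaving out a cafeteria array leaves a lone sample that is assumed to vary like the standard ones. The list medians of the other guanylate kinases ran from -0.10 to 0.012 and those of the polarity genes from -0.090 to 0.13 over the alternatives, with both ends set by leaving out 1 cafeteria array. The titles share replicate numbers 1 and 2 across diets, and same-numbered arrays correlated in their deviations from the group means at 0.079 and -0.037. The deviations of the 2 cafeteria arrays mirror each other, so these values cannot decide whether arrays were paired. The rats were housed singly, and nothing ties same-numbered arrays to shared days. With the number as a replicate block, the Dlg2 difference was 2.30 and 0 probe sets were called. Only numbers 1 and 2 occur in both diets, so the block takes up standard replicate 3. The differences are then the same as with that array left out. All 4 Dlgap1 probe sets lay under the filter on dim signal, and what limited calls among the other members was not tested.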
